A study of Mus musculus with 24 samples.

Results

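The *macrophage marker genes* described here are 10 genes, *Csf1r*, *Cx3cr1*, *Mrc1*, *Marco*, *C1qa*, *C1qb*, *C1qc*, *Cd68*, *Ctss* and *Mpeg1*, out of the 23420 genes listed in each expression table. They were found by symbol, and all 10 were tested in every comparison. RNA-Seq was carried out on the left lung lobe of 24 mice in 8 groups of 3. At each of postnatal (P) day 2 and day 5, lungs of the genotype Sox9Cre/+; Vangl2f/f were compared with controls named Control(Vangl1/2), and lungs of the genotype Sox9Cre/+; Ror2f/f were compared with separate controls named Control(Ror2), with WT given as the genotype of all controls. The floxed alleles lose *Vangl2* or *Ror2* where Cre is made from the *Sox9* locus, which in the lung is the distal epithelium, although *Sox9-Cre* is also active in other organs. In the labels, the genotype field of the *Vangl2* mutants at P5 and of the *Ror2* mutants at P2 names the other floxed gene, and the titles and descriptions were followed instead. The labels do not say which lungs are littermates. The p-values set the group differences against the spread between these lungs. They treat the lungs as independent, which shared litters could break. The lobe was sequenced whole, so each value mixes all cell types of the lung and the blood in it. In such bulk samples, fewer or more macrophages and less or more RNA per macrophage cannot be told apart.

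Macrophages of the newborn lung comprise fetal-derived cells of the interstitium and alveolar macrophages, which settle in the airspaces in the first days after birth and clear surfactant and debris. Survival of most macrophages depends on CSF1R, the receptor for the growth factors CSF1 and IL34. Macrophages take up particles through surface receptors such as MRC1 and MARCO, and degrade them in lysosomes that carry CD68 and contain cathepsin S. They are also a main source of C1q, the recognition molecule that starts the classical complement pathway. Most of the 10 genes are shared by several kinds of macrophage, and monocytes and dendritic cells also use some of them.

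In brief, the macrophage marker genes had higher averages in *Vangl2* mutant lungs at both ages, and 3 calls passed the test, *C1qa* at P2, and *Ctss* and *Mpeg1* at P5, which were 2.74-fold and 2.52-fold the control level. With 1 of the 6 lungs left out, *C1qa* kept its call in 1 fit, *Ctss* in 2 and *Mpeg1* in 0. Of all tested genes, 1.5% were called higher at P2 and 0.534% at P5, and neutrophil genes in the same lungs had larger medians (1.47 and 1.83) than the members (0.53 and 0.64). In *Ror2* mutants at P5 the groups overlapped for all 10. In *Ror2* mutants at P2 the averages were lower, with no member past the test, and the median difference shrank without 1 control lung with high values. *Cx3cr1* stood apart from the other members, with a log2 fold change of 0.05 in the P5 *Vangl2* mutants.

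The 3 genes of C1q lie next to each other on chromosome 4 (RefSeq, GRCm38.p6), within positions 136880126 to 136898844, a stretch of 18719 bases that holds *C1qb*, *C1qc* and *C1qa* and no other listed gene. Promoter windows from RefSeq (GRCm38.p6, the same assembly as mm10, which the processing notes name) matched 8 of the 10 members. The windows of *Ctss* and *Mpeg1*, the members called at P5 in *Vangl2* mutants, and of *Cx3cr1*, with the smallest change in the same lungs, are shown from 250 bases before to 20 after the gene's start. Capitals mark GAGGAA or its other strand TTCCTC, the core letters bound by PU.1, the transcription factor of the macrophage lineage.
*Ctss*, chr3:95526536-95526805, plus strand: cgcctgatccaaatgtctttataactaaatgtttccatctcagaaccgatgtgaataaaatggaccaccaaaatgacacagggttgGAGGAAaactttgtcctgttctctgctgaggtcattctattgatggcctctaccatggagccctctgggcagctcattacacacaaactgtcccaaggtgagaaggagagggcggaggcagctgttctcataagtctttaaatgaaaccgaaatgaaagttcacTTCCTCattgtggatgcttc
*Mpeg1*, chr19:12460520-12460789, plus strand: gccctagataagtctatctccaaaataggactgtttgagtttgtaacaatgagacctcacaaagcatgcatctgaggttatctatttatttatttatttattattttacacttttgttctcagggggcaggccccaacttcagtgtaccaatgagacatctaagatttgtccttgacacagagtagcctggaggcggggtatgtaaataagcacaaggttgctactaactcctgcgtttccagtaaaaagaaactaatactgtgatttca
*Cx3cr1*, chr9:120068277-120068546, minus strand: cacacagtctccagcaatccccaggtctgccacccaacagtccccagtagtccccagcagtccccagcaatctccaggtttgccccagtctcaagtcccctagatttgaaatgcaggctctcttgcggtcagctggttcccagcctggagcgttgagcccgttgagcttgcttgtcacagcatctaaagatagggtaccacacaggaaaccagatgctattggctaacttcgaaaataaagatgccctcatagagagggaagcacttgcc
The 6 letters occurred in 6 of the 8 members' windows (*C1qb*, *C1qc*, *Cd68*, *Ctss*, *Marco* and *Mrc1*) and in 25.1% of all 32851 windows. The longer GAGGAAGT, or ACTTCCTC on the other strand, which contains the core, occurred in *C1qc* and *Ctss* and in 2.72% of all windows. In *Ctss* the core was found at 2 places, 1 of them at the start itself. *Mpeg1*, called with *Ctss* in the P5 *Vangl2* mutants, had neither motif, nor did *Cx3cr1*. Such matches describe letters in these windows and do not show binding.

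All values are normalized counts, the reads counted on a gene divided by a size factor of the lung, as deposited. The test was limma on log2(normalized count + 1) over 17179 to 17541 genes per comparison, with Benjamini-Hochberg adjustment over all of them and a threshold of 0.05. A log2 fold change is mutant over control on that scale, and SE is its standard error. Where counts could be recovered, in 21 of the 24 lungs, from 13823693 to 21546673 reads fell on genes. The low end was P5 *Ror2* control replicate 1, whose missing chromosomes are described below. Every other recovered lung had at least 16178031. The deleted genes were checked first. *Vangl2* had 248.6, 302 and 281 normalized counts in the P2 *Vangl2* controls and 241, 224 and 173 in the mutants. At P5 it had 369, 314 and 292 in controls and 169.5, 148 and 166 in mutants, every mutant below every control at both ages. *Ror2* had 450.7, 581 and 520 in P2 *Ror2* controls and 479, 349 and 366 in mutants, and 526, 368 and 597 against 362, 440 and 521 at P5. Its groups overlapped at both ages. Neither gene passed the test in its own mutants, with log2 fold changes of -0.39 and -1.003 for *Vangl2* (limma adjusted p = 0.241 and 0.0604 at P2 and P5) and -0.38 and -0.16 for *Ror2* (0.250 and 0.692). In the lungs whose genotype field names the other gene, *Ror2* was 0.739-fold the control level in the P5 *Vangl2* mutants, and *Vangl2* was 0.863-fold in the P2 *Ror2* mutants, both with overlapping groups. Sex was unequal, since *Xist*, the RNA of the inactive X chromosome of females, had 19969 to 31655 normalized counts in the 3 P5 *Vangl2* controls but 19.25 in mutant replicate 1 of that comparison. At P2 it was high in 1 *Vangl2* control and 2 mutants. The P2 *Ror2* controls had 121.7, 22660 and 199.4, and the mutants 282.9, 24766 and 102.9. At P5 it had 11858.5 and 12.9 in the 2 *Ror2* controls with a value and 12.7, 5.2 and 129.8 in the mutants. Comparisons of *Ror2* with *Vangl2* lungs at P5 therefore also differ in sex. The part of sex in the members' values was not tested. In the P5 *Ror2* comparison, control replicate 1 had almost no reads on chromosomes 5 to 9 and X. Its values there were set to missing, which among the members touched only *Cx3cr1*, on chromosome 9.

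Whether loss of epithelial *Vangl2* goes with a change in macrophage genes was asked first at P2. All 10 members were higher on average in the 3 *Vangl2* mutant lungs than in the 3 controls, with a median log2 fold change of 0.53 against 0.001 over all 17448 genes tested. *C1qa* alone passed the test, as against 1.5% of all tested genes called higher. For 8 of the 10 members, every mutant lung lay above every control lung, as did 14.6% of all tested genes. The exact permutation test gives p = 0.1 for such genes, the smallest that 3 lungs against 3 allow. Recovered reads tested with DESeq2 gave 7 members as higher, where 5.63% of all genes were.

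*C1qa*, which encodes the A chain, had 467, 444 and 413 normalized counts in P2 controls and 677, 584 and 740.5 in mutants. Its log2 fold change was 0.59 (SE 0.13, limma adjusted p = 0.0498). This call lies at the threshold and was lost without any one of the lungs except mutant replicate 3, with limma adjusted p between 0.0410 and 0.209. *C1qb*, the B chain, had 407, 357 and 391.7 in controls and 805, 548 and 604 in mutants (log2 fold change 0.74, SE 0.16, limma adjusted p = 0.0509). *C1qc*, the C chain, had 409, 345 and 330.4 in controls and 714, 494 and 533 in mutants (0.67, SE 0.17, limma adjusted p = 0.0739). Mutant replicate 1 was the highest lung for the B and C chains, and mutant replicate 3 for the A chain.

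Scavenger receptors were less even. *Marco*, a receptor for unopsonized particles, had 232, 133 and 173 normalized counts in P2 controls and 406, 264.5 and 324 in mutants, the largest log2 fold change of the 10 members (0.90, SE 0.25, limma adjusted p = 0.0889). *Mrc1*, the mannose receptor, had 1270.2, 1218 and 1061 in controls and 1675.5, 1148 and 1459 in mutants (0.26, SE 0.15, limma adjusted p = 0.354). The groups overlapped for *Mrc1*, with mutant replicate 2 between the controls, and did not for *Marco*.

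Lysosomal and cytolytic members were higher in every P2 mutant lung. *Cd68*, a lysosomal membrane glycoprotein, had 416, 427 and 441 normalized counts in controls and 654, 557 and 789 in mutants (log2 fold change 0.62, SE 0.15, limma adjusted p = 0.0585). *Mpeg1*, which encodes the pore-forming protein perforin-2, had 2151, 1950 and 1926 in controls and 2456, 2854 and 3037.5 in mutants (0.47, SE 0.11, limma adjusted p = 0.0578). *Ctss*, the lysosomal protease cathepsin S, had 1885, 1633 and 1313 in controls and 1975, 2172 and 2371 in mutants (0.44, SE 0.14, limma adjusted p = 0.131). For *Ctss* the highest control and the lowest mutant differed by less than the spread within either group.

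Of the receptors for survival and adhesion, *Csf1r* had 1688, 1571 and 1535 normalized counts in P2 controls and 2137.5, 2021 and 1876 in mutants (log2 fold change 0.33, SE 0.09, limma adjusted p = 0.0943). *Cx3cr1*, the receptor for fractalkine (*Cx3cl1*), had 436, 416 and 217 in controls and 328, 460.3 and 402 in mutants (0.21, SE 0.28, limma adjusted p = 0.695). Its control replicate 3 was the lowest of the 6 lungs, and without that lung its log2 fold change was -0.12.

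**Figure D1:**
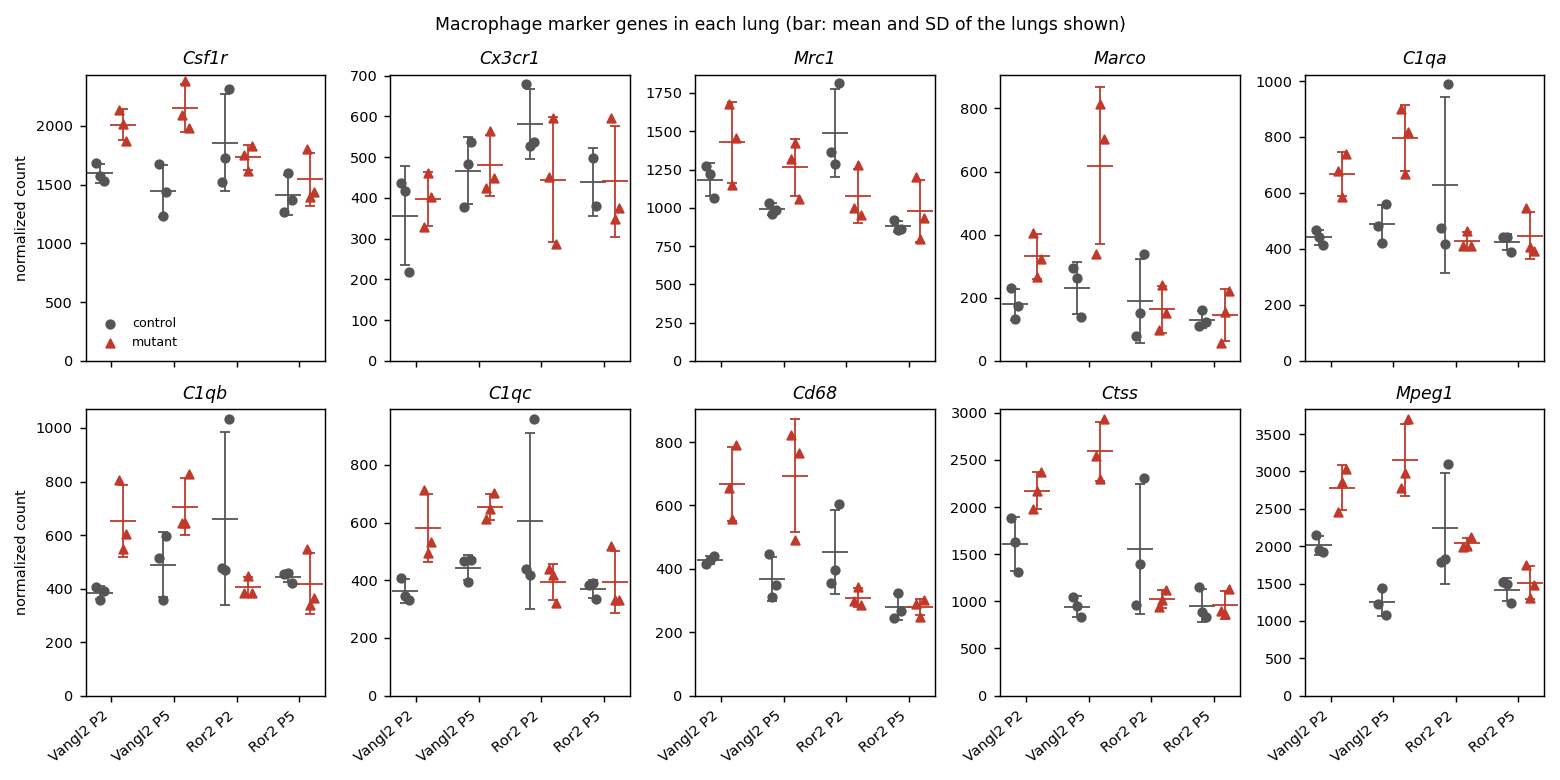
Normalized counts (vertical axis, linear, from 0) of the 10 macrophage marker genes in each control lung (grey circles) and mutant lung (red triangles), with the mean and SD of each group, for the 4 comparisons on the horizontal axis. *Ctss* and *Mpeg1* of the P5 *Vangl2* mutants lie far above their controls, and 1 P2 *Ror2* control lung lies above its group for 9 of the 10 genes.

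At P5 the *Vangl2* mutants again had higher averages for all 10 members, with a median log2 fold change of 0.64 against 0.003 over all 17410 genes tested. *Ctss* and *Mpeg1* passed the test, where 0.534% of all tested genes were called higher. For every member but *Cx3cr1*, each mutant lung was above each control lung, as for 13.2% of all tested genes. In this table the deviations of same-numbered lungs from their group means were positively correlated, so the number was also used as a block. With it, 6 members were called (*C1qa*, *C1qc*, *Cd68*, *Csf1r*, *Ctss* and *Mpeg1*), where 5.47% of all tested genes were called higher.

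*Ctss* had 1050.1, 956 and 829 normalized counts in P5 controls and 2540.4, 2302 and 2929 in *Vangl2* mutants. The group levels were 945 ± 111 and 2591 ± 316.5 (SD, n = 3 each), a log2 fold change of 1.45 (SE 0.15, limma adjusted p = 0.0141, 0.00640 with the block). *Mpeg1* had 1224, 1440.0 and 1084 in controls and 2773, 2985 and 3698.5 in mutants. Its levels were 1249.5 ± 179 and 3152 ± 485, a log2 fold change of 1.33 (SE 0.16, limma adjusted p = 0.0198, 0.00937 with the block). For both genes, the gap between the lowest mutant and the highest control was wider than the range within either group. With 1 lung left out, *Ctss* remained called only without control replicate 1 or mutant replicate 2, and *Mpeg1* was lost in all 6 cases (limma adjusted p between 0.0319 and 0.0643, and between 0.0535 and 0.0796). The log2 fold changes ranged from 1.36 to 1.535 for *Ctss* and from 1.21 to 1.44 for *Mpeg1* in these fits.

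*Marco* had 295, 261 and 139 normalized counts in P5 controls and 338, 813 and 704 in *Vangl2* mutants, a log2 fold change of 1.39 (SE 0.39, limma adjusted p = 0.128, 0.05715 with the block). Mutant replicate 1 lay close to the controls and the other mutants far above them. *Mrc1* had 1034, 958.0 and 984.5 in controls and 1316, 1421 and 1058 in mutants (0.34, SE 0.15, limma adjusted p = 0.258). Its lowest mutant was just above its highest control.

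*Cd68* had 446, 311.5 and 348 normalized counts in P5 controls and 823, 490.2 and 767 in *Vangl2* mutants (log2 fold change 0.89, SE 0.23, limma adjusted p = 0.117, 0.0185 with the block). *Csf1r* had 1673, 1231 and 1437 in controls and 2096, 2381 and 1985 in mutants (0.58, SE 0.15, limma adjusted p = 0.117, 0.0467 with the block). In both, the groups were apart without overlap.

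*C1qa* had 483.5, 421 and 560.3 normalized counts in P5 controls and 899.9, 669 and 818 in *Vangl2* mutants (log2 fold change 0.70, SE 0.17, limma adjusted p = 0.106, 0.0237 with the block). *C1qb* had 515, 357 and 596 in controls and 644, 645 and 828 in mutants (0.55, SE 0.21, limma adjusted p = 0.223, 0.0533 with the block). *C1qc* had 466, 393 and 470 in controls and 613, 646 and 702 in mutants (0.56, SE 0.14, limma adjusted p = 0.115, 0.0377 with the block). The chains thus lay 1.44-fold to 1.63-fold above the controls, below the 2.74-fold of *Ctss*. *Cx3cr1* had 377, 484 and 538 in controls and 425, 565 and 449.5 in mutants (0.05, SE 0.19, 95% confidence interval -0.39 to 0.48, limma adjusted p = 0.923), with overlapping groups.

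**Figure D2:**
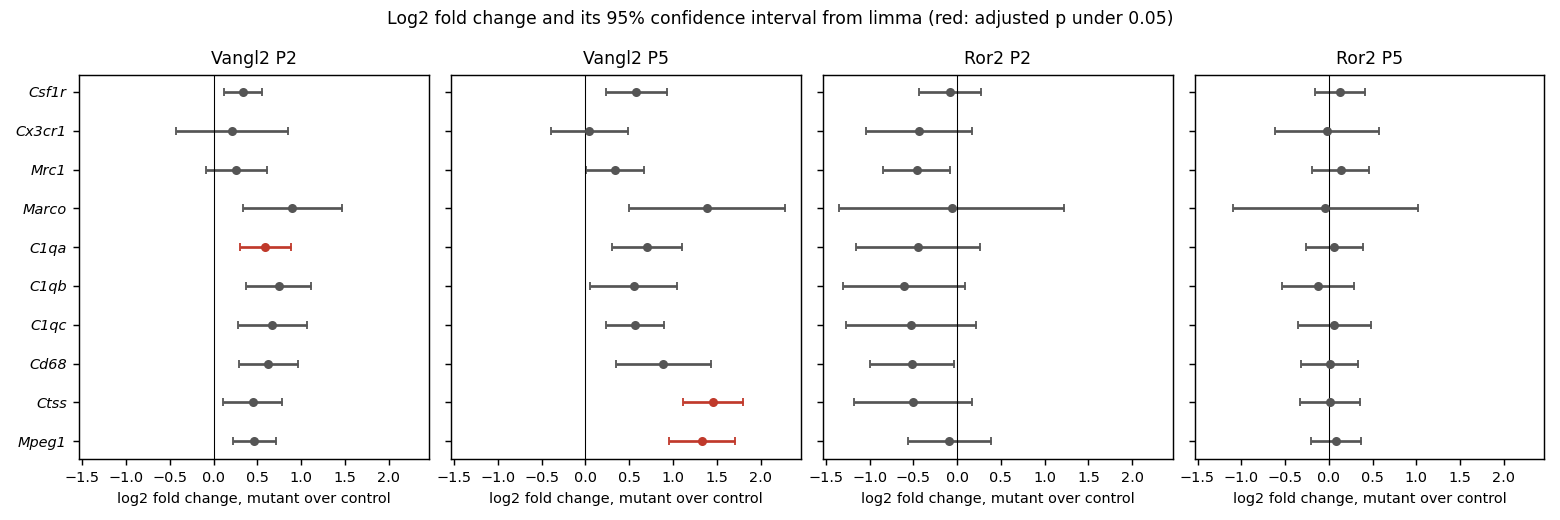
Log2 fold change of each macrophage marker gene, mutant over control (horizontal axis), with its 95% confidence interval from limma, in 1 panel per comparison. Red points passed an adjusted p of 0.05, which were *C1qa* in the P2 and *Ctss* and *Mpeg1* in the P5 *Vangl2* mutants.

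Ratios between members within a lung are given as a description, since the pairs were chosen after the values were seen and set the 2 called genes over members with smaller changes. In the P5 *Vangl2* comparison, the log2 ratio of *Ctss* to *C1qa*, in which gene length cancels between lungs, was 1.12, 1.18 and 0.57 in controls and 1.497, 1.78 and 1.84 in mutants. That of *Mpeg1* to *Csf1r* was -0.45, 0.23 and -0.41 in controls and 0.40, 0.33 and 0.90 in mutants. Both ratios were higher in each mutant lung than in each control lung. At P2 the *Ctss* ratio was 2.015, 1.88 and 1.67 in controls and 1.545, 1.895 and 1.68 in mutants, and the *Mpeg1* ratio 0.35, 0.31 and 0.33 in controls and 0.20, 0.498 and 0.695 in mutants, both with overlap. Between P2 and P5, the log2 fold change of *Ctss* in *Vangl2* mutants differed by 1.01 (95% confidence interval 0.55 to 1.47, unadjusted p = 0.000457 from limma) and that of *Mpeg1* by 0.87 (0.43 to 1.302, unadjusted p = 0.000921). Neither difference passed adjustment over 17068 genes (limma adjusted p = 0.577 for both). These were 2 of the 10 members at an unadjusted p under 0.05, where 8.45% of all tested genes were, and 0 genes passed the adjusted p.

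Loss of *Ror2* with the same Cre was compared next. At P2 all 10 members had a lower average in *Ror2* mutants than in their controls, with a median log2 fold change of -0.45 against -0.006 over all 17541 genes tested, and 0 members passed the test. In that comparison limma called 0% of all tested genes higher, 0 genes in either direction, although 3380 had an unadjusted p under 0.05, edgeR called 0 and DESeq2 called 796. The mutant lungs were all below the controls for 3 members, *C1qb*, *Cd68* and *Mrc1*, as for 12.2% of all tested genes. The opposite, every mutant above every control, held for 0 members and 13.4% of all tested genes.

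Control replicate 3 was the highest of the 6 lungs for 9 of the 10 members, all but *Cx3cr1*. *C1qa* had 474, 418 and 989 normalized counts in the P2 *Ror2* controls and 409, 464 and 409 in the mutants (log2 fold change -0.45, SE 0.30, limma adjusted p = 0.429). *C1qb* had 476.5, 471 and 1033.1 in controls and 382, 447.5 and 383 in mutants (-0.61, SE 0.30, limma adjusted p = 0.301). *Ctss* had 959, 1393 and 2309 in controls and 941.0, 1014 and 1125 in mutants (-0.51, SE 0.29, limma adjusted p = 0.353). For *C1qa* and *C1qb* the other controls lay close to the mutants, and for *Ctss* control replicate 1 lay among them. *Mpeg1* had 1788, 1834.5 and 3096.5 in controls and 1991, 2004 and 2121 in mutants (-0.09, SE 0.20, limma adjusted p = 0.829). *Cd68* had 357, 397.0 and 605 in controls and 299, 343 and 286 in mutants (-0.51, SE 0.20, limma adjusted p = 0.243), and *Mrc1* had 1363, 1289 and 1818 against 997, 1282 and 955 (-0.46, SE 0.16, limma adjusted p = 0.219). For both, the highest mutant fell just short of the lowest control. *C1qc*, *Csf1r* and *Marco* were likewise highest in control replicate 3, at 959, 2319 and 338 normalized counts, against at most 440.4, 1829.9 and 242 in the other 5 lungs.

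Without that lung the median log2 fold change of the members was -0.16, and those of *Marco*, *Csf1r* and *Mpeg1* turned positive, at 0.48, 0.09 and 0.17. The members with separated groups kept a negative sign, with -0.23 for *C1qb*, -0.29 for *Cd68* and -0.31 for *Mrc1* (limma adjusted p = 0.364, 0.335 and 0.322). The 12 neutrophil genes listed in that table summed to 31031 normalized counts in control replicate 3, against 5997 and 8540 in the other controls and 7407 to 9651 in the mutants, and the 6 monocyte genes to 1866 against 578 to 904 in the other 5 lungs. The part of these cells in the members' values was not tested. *Cx3cr1* did not share the pattern, with 679.7, 528.5 and 537 normalized counts in controls and 452, 595 and 288 in mutants (log2 fold change -0.44, SE 0.26, limma adjusted p = 0.369).

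At P5 the members of *Ror2* mutants had log2 fold changes between -0.12 and 0.135 (7 positive and 3 negative) and a median of 0.04, against 0.004 over all genes. The count of members called was 0 at an adjusted and at an unadjusted p under 0.05, where limma called 0.0582% of all 17179 tested genes higher. The widest 95% confidence interval was that of *Marco*, from -1.10 to 1.01. Groups overlapped for all 10, while 15.6% of all tested genes had every mutant above every control. *Ctss* had 1150.1, 884 and 833.5 normalized counts in controls and 893, 866 and 1132 in mutants (log2 fold change 0.02, 95% confidence interval -0.33 to 0.36). *Mpeg1* had 1525, 1491 and 1242 in controls and 1743, 1310 and 1479 in mutants (0.09, 95% confidence interval -0.20 to 0.37). Both intervals lie below the log2 fold changes of 1.45 and 1.33 in the P5 *Vangl2* mutants.

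The chains of C1q showed the same lack of separation in *Ror2* mutants at P5. *C1qa* had 441, 442 and 390.0 normalized counts in controls and 544, 405 and 391 in mutants. *C1qb* had 455, 458 and 422 in controls and 549, 339 and 365.5 in mutants. Mutant replicate 1 was the highest of the 6 lungs for all 3 chains, and the other mutants were below the control mean. *Cx3cr1* had 498 and 379 normalized counts in the 2 controls with a value and 597, 349 and 375 in mutants (log2 fold change -0.02, with 5 lungs in its fit).

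The effects of the 2 deletions were then compared directly, each against its own controls. At P5, the log2 fold change of all 10 members was lower in *Ror2* than in *Vangl2* mutants, with differences from -1.44 to -0.07. The lowest p-values belonged to *Ctss*, at -1.44 (95% confidence interval -1.91 to -0.96, limma adjusted p = 0.0793) and *Mpeg1*, at -1.25 (-1.71 to -0.78, limma adjusted p = 0.118). None passed the adjusted p, 6 of 10 had an unadjusted p under 0.05, as did 4.73% of all 16887 genes tested, and 2 genes in all passed the adjusted p. At P2 the differences were again negative for all 10, from -1.35 to -0.41, with 8 of 10 at an unadjusted p under 0.05, where 4.6% of all 17137 genes were, and 0 genes past the adjusted p (limma adjusted p = 0.946 at the least for the members). Without *Ror2* control replicate 3, the count of members at an unadjusted p under 0.05 was 6, as against 428 of all 17137 genes. Between P5 and P2 of the *Ror2* deletion, 1 member (*Mrc1*, 0.60, limma adjusted p = 0.483) had an unadjusted p under 0.05, where 9.5% of all genes did. Members share lungs and cells of origin, so these counts are not independent of each other.

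Other macrophage genes were less uniform than the 10 markers. Of 17 genes of resident and interstitial macrophages in the tables, 10 were higher on average in *Vangl2* mutants at P2 and 11 at P5, with medians of 0.20 and 0.48, and 0 passed the test at either age. The lowest p at P2 was that of *Cbr2*, a carbonyl reductase, with a log2 fold change of 0.64 (limma adjusted p = 0.0651). Which cells of the whole lobe its reads came from was not tested. In *Ror2* mutants at P2 it was positive (0.33), where the list's median was negative. With the block at P5, 4 passed (*F13a1*, *Ms4a7*, *Cbr2* and *Trem2*). At P5 *Maf* (-0.48), *Stab1* (-0.37), *Folr2* (-0.36), *Lyve1* (-0.27), *Fcrls* (-0.15) and *Timd4* (-0.15) were lower on average in *Vangl2* mutants. None of them was called lower, with or without the block. *Trem2*, a lipid-sensing receptor, had 34.7, 42.3 and 31.2 normalized counts in P5 controls and 172, 81.7 and 104.5 in mutants (log2 fold change 1.64, SE 0.34, limma adjusted p = 0.0814, 0.0307 with the block). Of 12 tested alveolar macrophage genes, 1 passed at P5, *Atp6v0d2*, a subunit of the vacuolar proton pump. It had 238, 220 and 173 in controls and 586.5, 457 and 728 in mutants, all above, with a log2 fold change of 1.47 (SE 0.22, limma adjusted p = 0.0375). At P2 none of the 12 passed, and the list's median was 0.285 (lowest unadjusted p for *Ear10*, at 1.05, 0 and 15.3 normalized counts in controls and 50.7, 25.6 and 27.5 in mutants, limma adjusted p = 0.0931). In *Ror2* mutants 0 genes of either list passed. The resident list's median was -0.355 at P2 and 0.12 at P5, with *Mertk* (0.89) and *Cbr2* (0.89) at the lowest p (limma adjusted p = 0.203 and 0.0882), and the alveolar list's was -0.06 and -0.175.

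Growth factors and receptors of macrophages were followed through 7 genes. *Csf2rb*, the shared beta chain of the receptors for GM-CSF, IL-3 and IL-5, had 506, 422 and 538 normalized counts in P2 *Vangl2* controls and 947, 729 and 1311 in mutants (log2 fold change 0.99, SE 0.21, limma adjusted p = 0.0479). At P5 it had 474, 373 and 337 in controls and 1064, 687 and 722 in mutants (1.05, SE 0.21, limma adjusted p = 0.0797, 0.00937 with the block). Every mutant lung was above every control lung at both ages. All 7 genes were higher on average in *Vangl2* mutants, with medians of 0.67 and 0.59, and in *Ror2* mutants 4 and 6 of 7 were, with medians of 0.04 and 0.40 and 0 past the test. Of the 3 genes of the C1 proteases and their inhibitor, which act with C1q, all 3 were positive in *Vangl2* mutants at both ages (medians 0.71 and 0.39), and so were 3 at P2 and 2 at P5 in *Ror2* mutants (medians 1.12 and 0.82). In the unblocked fits 0 passed, with the lowest p for *C1ra* in *Ror2* mutants at P2 (log2 fold change 1.12, limma adjusted p = 0.203).

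Lysosomal genes outside the members included some of the larger changes. Of 16, 4 were called higher in *Vangl2* mutants at P2 and 1 at P5, with medians of 0.24 and 0.235. *Gpnmb*, a glycoprotein of lysosome-rich phagocytes, had 181, 221 and 200.2 normalized counts in P2 controls and 644, 452 and 635 in mutants (log2 fold change 1.505, SE 0.18, limma adjusted p = 0.0248). At P5 it had 97.6, 76.4 and 95.7 in controls and 905, 364 and 1061 in mutants (2.96, SE 0.38, limma adjusted p = 0.0202). *Ctsh* and *Npc2*, both also expressed in alveolar type II cells, passed at P2 with log2 fold changes of 1.11 and 1.08 (limma adjusted p = 0.0301 and 0.0320). In the *Ror2* mutants 0 of the 16 passed, with medians of -0.03 and -0.04.

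Among 19 genes of macrophage activation, *Retnla*, a secreted product of alternatively activated macrophages that airway epithelium also makes, had 1814, 840.3 and 622 normalized counts in P2 *Vangl2* controls and 7992, 2911 and 3992 in mutants (log2 fold change 2.20, SE 0.46, limma adjusted p = 0.0436). In *Ror2* mutants at P5, where 0 of the 10 markers passed, it had 404, 231 and 255 in controls and 4024.5, 5127 and 2124 in mutants (3.61, SE 0.33, limma adjusted p = 0.0308), the only gene of the list to pass there. Of the 19 genes, 7 were positive there, with a list median of -0.12, and 12 at P2, with a median of 0.16. In *Vangl2* mutants 16 were positive at P2 and 15 at P5, with medians of 1.145 and 0.89. The *Retnla* level of *Vangl2* mutants at P5 did not pass (2.42, SE 0.83, limma adjusted p = 0.185). In those lungs 3 genes of the list did, the C-type lectin receptors *Clec4e*, *Clec4n* and *Clec7a*, with log2 fold changes of 2.48, 1.55 and 1.29 (limma adjusted p = 0.0386, 0.0148 and 0.0225). Neutrophils and dendritic cells use such receptors as well.

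Of 12 tested neutrophil genes, 9 were called higher in *Vangl2* mutants at P2 and 4 at P5 (10 with the block), where 1.5% and 0.534% of all tested genes were (5.47% with the block). Their median log2 fold changes were 1.47 and 1.83. In *Ror2* mutants 0 of 12 passed at P2 and 0 of 11 at P5, with medians of -0.19 and 0.41. Their summed level ranged from 4103 to 6240 normalized counts in P2 *Vangl2* controls and from 11965 to 15308 in mutants, and from 4072 to 5709 in P5 controls and from 11964 to 27175 in mutants. None of the 12 was at 0 in all lungs, and *Ly6g* was not analysed here. The part of neutrophils in the members' values was not tested. In *Vangl2* mutants at P2, 2 of the 6 monocyte genes were positive, with 0 past the test and sums of 736 to 1373 in controls and 796 to 948 in mutants. In those at P5, 5 of 6 were positive, with 0 past the test and 3 with the block, and sums of 815 to 1013 in controls against 1478.5 to 2021 in mutants. In *Ror2* mutants 0 of the 6 were positive at P2 (median -0.715) and 5 at P5 (median 0.45), with 0 past the test.

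General leukocyte and myeloid genes were followed through 17 genes. In the P5 *Vangl2* mutants, 3 of 17 passed, *Fcer1g*, *Tyrobp* and *Cybb*, and 11 with the block, with a median log2 fold change of 1.10. *Fcer1g*, the signalling chain of several Fc receptors, had 315, 380 and 343 normalized counts in controls and 1006, 883 and 818.5 in mutants (1.38, SE 0.15, limma adjusted p = 0.0148). *Tyrobp*, the adaptor of TREM2, had 575, 416 and 486 in controls and 1143, 1089.0 and 1347 in mutants (1.28, SE 0.16, limma adjusted p = 0.0202). At P2, 1 of 17 passed, *Itgam*, a subunit of complement receptor 3 (0.69, limma adjusted p = 0.0458). In *Ror2* mutants 0 passed, with medians of -0.29 and 0.16.

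Dendritic cell, lymphocyte, and mast cell and basophil genes had 0 members past the test in any comparison. The lymphocyte list had a median of 1.43 in P5 *Vangl2* mutants, where mutant replicate 3 held a summed level of 16797 normalized counts against 840.5 to 1668 in controls. Mutant replicates 1 and 2 had 1359 and 961, within the range of the controls. Among structural cells, 5 fibroblast genes summed to 69053 to 80978 normalized counts in P2 *Vangl2* controls and 53004 to 58609 in mutants, and to 84163 to 100324 against 38346 to 64594 at P5. *Col1a1* was called lower in *Vangl2* mutants at P2 (log2 fold change -0.64, limma adjusted p = 0.0394). The lower sums were not shared by the whole list, since 3 of the 5 fibroblast genes were positive at P2, with a median of 0.13. At P5, 2 of the 5 were positive, with a median of -0.88. The 6 endothelial genes summed to 65627 to 72863 in P5 *Vangl2* controls and 37661.5 to 60202 in mutants. The part of these shifts in the members' values was not tested. In P2 *Vangl2* mutants, the alveolar type I and II lists each had 1 gene called higher. These were *Hopx* (0.75, limma adjusted p = 0.0436) and *Slc34a2* (0.63, limma adjusted p = 0.0394). Of the 5 type II genes 4 were positive, while *Sftpc* was not (-0.05). The type II sums overlapped, with 318172 to 366897 in controls and 309768 to 449934 in mutants. Of the erythroid list, *Alas2* was called lower in the same mutants (-1.51, limma adjusted p = 0.0326).

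**Figure D3:**
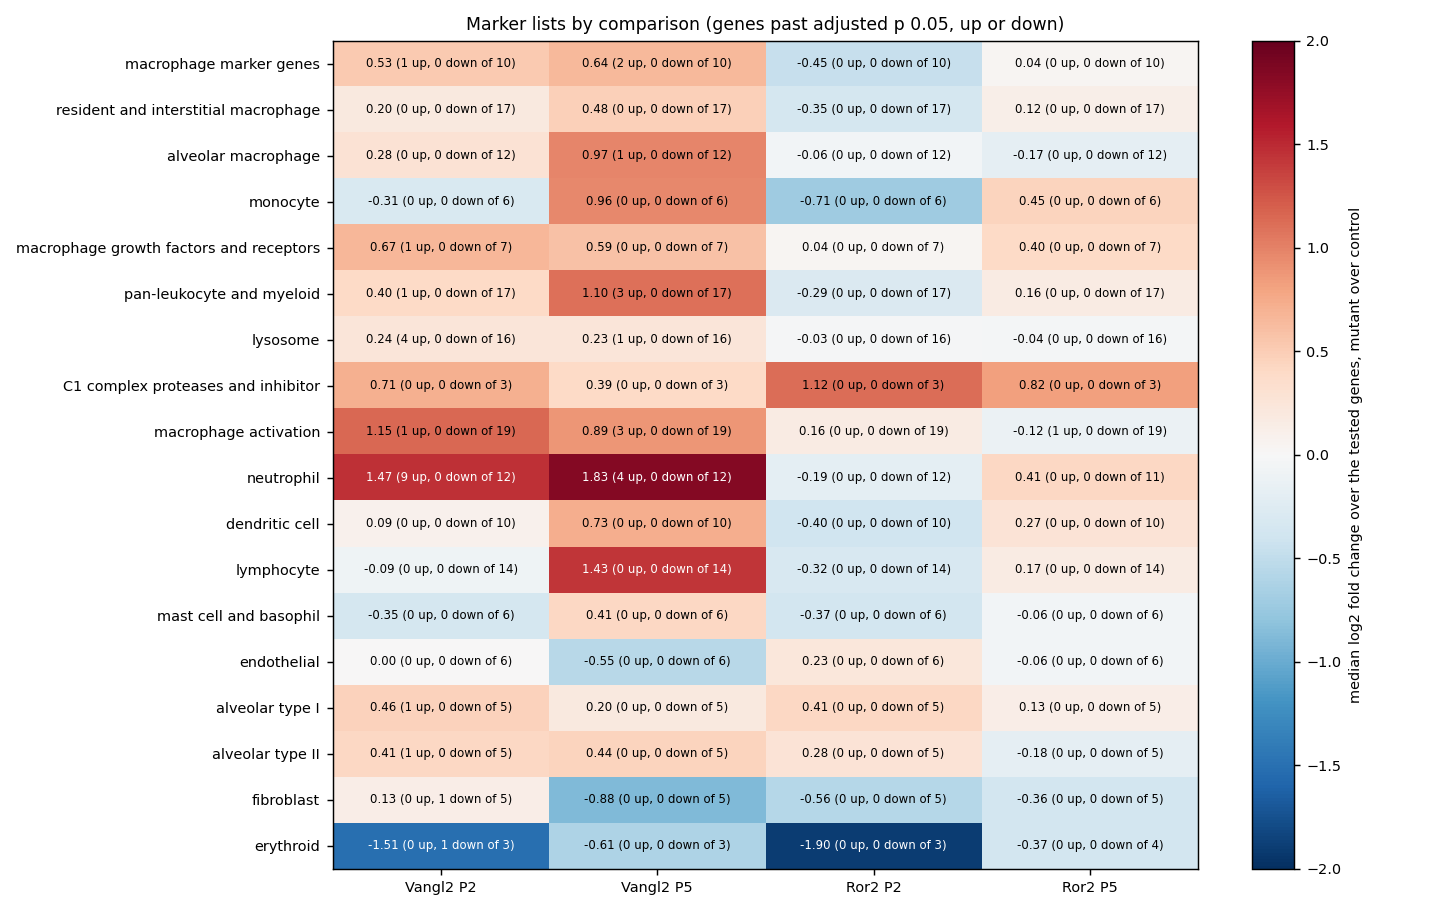
Median log2 fold change over the tested genes of each list (colour and first number in each cell), mutant over control, with the number of genes past an adjusted p of 0.05 in each direction, for 18 lists (rows) and 4 comparisons (columns). The macrophage marker genes have medians of 0.53, 0.64, -0.45 and 0.04, and the neutrophil list has the largest number of genes called, 9 of 12 in the P2 *Vangl2* mutants.

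Within groups, the members' deviations were positively correlated, less so without 1 lung. Over all 24 lungs, as deviations of log2 values from the mean of the lung group, the members had a median Pearson r of 0.64 with the mean of the other members. It was highest for *C1qc* (0.82, Spearman's rho 0.70) and lowest for *Cx3cr1* (0.02, rho 0.13, 23 lungs) and *Marco* (0.28, rho 0.31). Without control replicate 3 of the P2 *Ror2* lungs, an alternative chosen after the data were seen, the median was 0.28, with 0.54 for *C1qc* and -0.18 for *Marco*. The neighbouring C1q genes had the highest pairwise r, 0.91 for *C1qb* with *C1qc*, 0.86 for *C1qa* with *C1qb* and 0.85 for *C1qa* with *C1qc*, and 0.81, 0.70 and 0.62 without that lung. These correlations describe lungs that share a table and its normalization and carry no test.

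A mean normalized count of at least 50 was reached by 13189 genes, the 10 members included. The 10 non-members among them whose deviations were most like the members' mean were *Unc93b1* (r = 0.86, rho 0.66), *Igsf6* (0.84, 0.80), *Lrrc25* (0.81, 0.79), *Ccr1* (0.81, 0.71), *Slfn1* (0.81, 0.66), *Csf2rb2* (0.81, 0.58), *Tyrobp* (0.80, 0.68), *Itgam* (0.80, 0.57), *AB124611* (0.79, 0.59) and *Ms4a6d* (0.79, 0.60), over 23 or 24 lungs. The median r of all 13189 genes was -0.03. Without the same control lung, their r ranged from 0.32 to 0.66, and only *Lrrc25* remained among the 10 most alike.

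**Figure D4:**
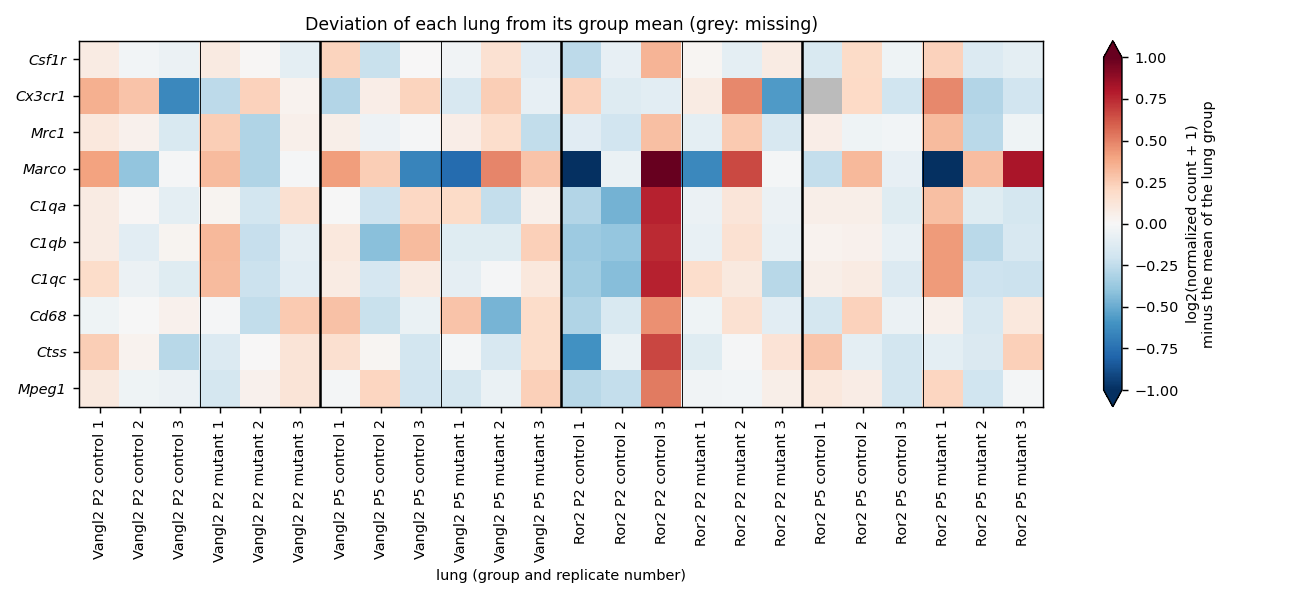
Deviation of log2(normalized count + 1) from the mean of the lung group (colour, limited to 1 in either direction) for the 10 macrophage marker genes (rows) in the 24 lungs (columns), with the missing value of *Cx3cr1* in grey. Control replicate 3 of the P2 *Ror2* lungs is positive for 9 of the 10 genes, and *Cx3cr1* and *Marco* vary apart from the others.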

How the data were processed

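Each lung, 1 per mouse, was sequenced from total RNA of the left lobe. The values are signal values as deposited, read counts per gene divided by a size factor of each lung, after alignment to mm10. The labels name DESeq2 without its role. Other steps of the alignment are not given in the sources used here. Each of the 4 tables (genotype and age) was normalized separately. They also hold the authors' own base means, fold changes, statistics and p-values, which were not used. Whole reads were recovered from the steps between low values in 21 of 24 lungs (tolerance 0.02; 100.0% of values whole), and edgeR and DESeq2 were run on these reads for the P2 comparisons as alternatives. Reads limit precision by counting error only.

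Genes with at least 1 normalized count in at least 3 lungs were tested with limma 3.58.1 (R 4.3.3) on log2(normalized count + 1), mutant against control within each table, on 6 lungs. Differences between comparisons were tested in 1 limma fit over the 12 lungs, each mutant group against its own controls, and exact permutation tests were run on single genes. edgeR 4.0.16 and DESeq2 1.42.0 were the count tests. The fit was tested on simulated data with 200 changed genes. Ror2 P5 control replicate 1 had 8076 genes on chromosomes 5 to 9 and X set to missing. Same-numbered lungs correlated in their deviations in the P5 Vangl2 table (r = 0.384, 0.34 and 0.241, all over 0.1), so the blocked value stands beside its results; the pairing comes from the data, not the labels. The members and lists were chosen with earlier results of these data known. All members are named, and from each other list up to 3 genes past the test or otherwise the lowest p where given. The 10 genes most like the members are named too, as is *Sftpc*. So are the resident macrophage genes that passed with the block or were lower in P5 *Vangl2* mutants. The within-lung ratios and the correlations without 1 lung were chosen after seeing the data. Alternatives were the pseudocount, the filter, equal totals, the block, 12 lungs in one fit, the count tests and leaving out each lung.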

Additional observations from a re-analysis of the deposited data

Results flagged for a closer look

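*C1qb* and *Cd68* were flagged because every *Vangl2* mutant lung at P2 lay above its controls while every *Ror2* mutant lung at P2 lay below its own. Since this pick used the same lungs, the intervals and unadjusted p-values below are not independent of it. The share of all tested genes with such opposite separation is not given here. The difference between the log2 fold changes, *Ror2* minus *Vangl2*, was -1.35 for *C1qb* (95% confidence interval -2.15 to -0.55) and -1.14 for *Cd68* (-1.72 to -0.56). In the limma test of the difference itself their unadjusted p-values were 0.00332 and 0.00106, and the adjusted p was 0.946 for both, so neither passed. Without *Ror2* control replicate 3, which was high for both genes, the differences were -0.97 and -0.91 (limma adjusted p = 1.00 for both). Groups of 3 lungs were too small for the test of single outlying samples.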

How the results depend on the processing

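Of the P2 *Vangl2* comparison, 1 member was called, against 0 with a pseudocount of 8, without a filter, with equal totals or with the 12 lungs in one fit, 2 with a minimum of 10 or edgeR, 3 with the replicate block, 7 with DESeq2 and 0 to 6 when 1 lung was left out. The 3 called with the block were *C1qb*, *C1qc* and *Marco*, while *C1qa* lost its call (limma adjusted p = 0.0702 with the block). Over all genes this comparison had 626 calls, against 45 with the 12 lungs, 1991 with DESeq2 and 1 to 2308 with 1 lung left out. The P2 *Ror2* comparison had 0 calls, 1 with the block, 796 with DESeq2 and 0 to 849 with 1 lung left out. At P5, *Vangl2* had 98 calls, against 193 with equal totals, 1558 with the block, 952 with the 12 lungs and 0 to 53 with 1 lung left out. Its 2 called members became 6 with the block, 5 with the 12 lungs and 0 to 1 with 1 lung left out, and the members' median of 0.64 became 0.737 with equal totals and 0.54 to 0.757 with 1 lung left out. *Ror2* at P5 had 21 calls, against 35 with equal totals, 1 with the block or with control replicate 1 kept as deposited, 3 with the 12 lungs and 0 to 661 with 1 lung left out. Directions turned for *Cx3cr1* of the P5 *Ror2* lungs with equal totals (0.0234) and with control replicate 1 as deposited (2.90).

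With 1 lung left out, log2 fold changes that turned ranged as follows. At P2, *Cx3cr1* of *Vangl2* ranged from -0.1165 to 0.3839, and of *Ror2* *Marco* from -0.5708 to 0.4767, *Csf1r* from -0.2106 to 0.0908 and *Mpeg1* from -0.2257 to 0.1701. At P5, *Cx3cr1* of *Vangl2* ranged from -0.1 to 0.1566, and of *Ror2* *Mrc1* from -0.0221 to 0.2703, *Marco* from -0.4484 to 0.52, *C1qa* from -0.0892 to 0.1487, *C1qb* from -0.3353 to 0.0103, *C1qc* from -0.1477 to 0.1708, *Cd68* from -0.0752 to 0.1255, *Ctss* from -0.1055 to 0.1564, *Mpeg1* from -0.0225 to 0.1837 and *Cx3cr1* from -0.264 to 0.1732. The cause was not tested. The number of members past the adjusted p in the differences between comparisons was 0 in every alternative run. Outside the P5 *Vangl2* table, same-numbered lungs did not all correlate above 0.1, so that there the replicate block rests on a shared number only. Count tests were not run at P5, since 3 lungs gave no whole reads.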
